A study of Schizosaccharomyces pombe with 8 samples.

Results

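The data describe how RNA bound to RNA polymerase II (Pol II) compared with total RNA in fission yeast (Schizosaccharomyces pombe) whose histone deacetylases (HDACs) were inhibited. NET-seq sequences the RNA that stays attached to immunoprecipitated polymerase, here caught through a flag tag on its subunit Rpb3. The cells were wild type apart from that tag and were exposed to 20 µg/ml trichostatin A (TSA), an inhibitor of class I and class II HDACs, for 2.5 h. Each of 2 TSA cultures, described as biological duplicates, was sequenced as immunoprecipitate (IP) and as total RNA before precipitation (input), so that 4 of the 8 libraries of the series belong here. The other 4 libraries came from 2 untreated cultures of the same Rpb3-flag strain and serve only as a background. All lysates had received lysate of Rpb3-flag budding yeast, in a ratio of 50 parts to 1. All entries other than coding parts were taken from the table scaled to total reads, which made 9111 of 19343 features after 28 repeated pseudogene transcripts were set aside. Of these 9111, 7940 had reads in at least 1 TSA IP and 1 TSA input library and a mean above the pseudocount in either kind.

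A transcribing polymerase carries a growing RNA, and that RNA is a small fraction of what the cell holds of a stable transcript. The IP is therefore meant to count transcripts by how much polymerase sits on them. The input counts them by how much RNA has accumulated. Pol II makes messenger RNAs, most spliceosomal snRNAs, most snoRNAs and most long noncoding RNAs. tRNAs, 5S rRNA and U6 snRNA are made by Pol III, the large rRNAs by Pol I and mitochondrial RNAs by a polymerase of the mitochondrion. The TSA IP libraries also held such RNA. Of the reads over the kept features, 8.60% and 5.10% came from tRNA and 10.4% and 7.25% from mitochondrial features. For these features the ratio is no measure of Pol II. How much finished RNA of other classes the IP held was not measured.

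For each culture the ratio was log2 of IP over input, each with a pseudocount (7.80 normalised reads for IP and 1.18 for input), minus the median of that culture's protein-coding genes. A centred ratio of 1 thus means that a feature was represented in the IP over the input 2-fold more than the median protein-coding gene. It compares shares of libraries and is no transcription rate, and it cannot tell fewer transcribing cells from less polymerase per cell. Before centring the coding medians were 2.62 and 2.58 in the 2 TSA cultures. The ratios of the cultures correlated over 7940 features with Pearson r of 0.876 and Spearman rho of 0.815, and the median absolute difference between them was 0.345. Features were called higher or lower at an adjusted p under 0.05 (limma) and a difference of 2-fold or more. Each SE given is the moderated one of limma, which draws on the spread of other features. It is not the spread between the 2 cultures of the feature itself.

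The kinds of library differed strongly in what they held. tRNA made 8.60% and 5.10% of the reads over the kept features in the TSA IP libraries, against 55.8% and 56.0% in the TSA inputs. Protein-coding genes made 43.3% and 36.6% of the IP reads, against 19.1% and 17.6% of the input reads. Reads in overlapping features were counted for each feature. In the inputs, 20 coding genes with a tRNA, 5S rRNA or snoRNA gene on their strand held 1371413 and 843355 of the 2406332 and 1523895 coding reads. In the IP libraries these 20 genes held 199633 and 100183 of 3764607 and 2646003. Summed over the kept features, there were 8688523 and 7218671 reads for IP and 12591213 and 8636069 for input. These sums count shared reads more than once and are not library totals. The median protein-coding gene had 327 and 244 reads in IP but only 64 and 42 in input, so the input set the precision of most ratios.

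Of the 7940 features tested, 1615 were called higher (20.3%) and 625 lower (7.87%). Among 4999 protein-coding genes, 557 were higher (11.1%) and 318 lower (6.36%). The other classes fell on both sides of the coding genes. tRNAs, mitochondrial features, snoRNAs and rRNAs had medians below them. Long noncoding RNAs, pseudogenes and spliceosomal snRNAs had medians above them. All 2240 called features had the same direction in both cultures. The adjusted p added little to the fold threshold, since 1650 features were at least 2-fold above and 626 at least 2-fold below the median coding gene before any test.

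**Figure D1:**
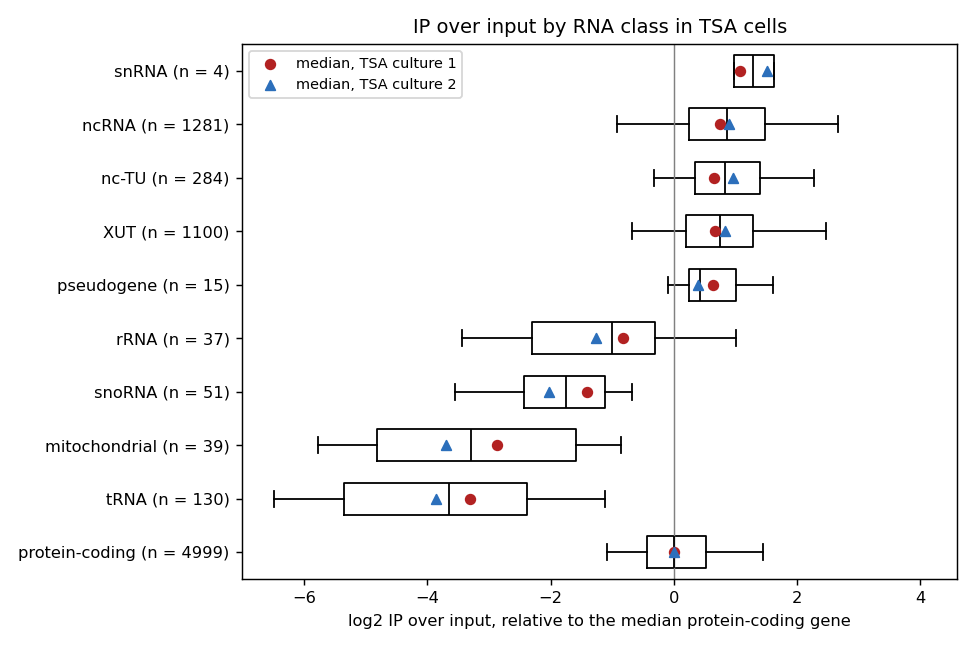
Centred log2 ratio of IP over input in TSA cells by RNA class. Boxes span the quartiles with the median as a line, whiskers run from the 5th to the 95th percentile of the features, and points give the median in each culture. The tRNA median lies at −3.65 and the ncRNA median at 0.86, with protein-coding genes at 0.01.

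tRNA genes had the lowest median of all classes, −3.65, which is 12.6-fold below the median protein-coding gene. The medians in the cultures were −3.31 and −3.86. Of 130 tested tRNA genes, 122 were called lower and none higher. Mitochondrial features came next with a median of −3.29, and 35 of 39 were lower and none higher. snoRNAs, which guide the chemical modification and processing of rRNA, had a median of −1.75 with 40 of 51 lower and none higher. rRNA genes had a median of −0.996, with 18 of 37 lower and 3 higher. That class is almost entirely 5S rRNA here, because 33 of its 37 tested members are 5S genes.

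On the other side, ncRNA had a median of 0.86 (1.81-fold), with 525 of 1281 called higher and 56 lower. XUTs, unstable transcripts that accumulate when the cytoplasmic exonuclease Exo2 (Xrn1 in budding yeast) is missing, had a median of 0.75 with 406 of 1100 higher and 30 lower. nc-TU transcripts had a median of 0.82 with 117 of 284 higher and 6 lower. The share of higher calls in these classes, between 36.9% and 41.2%, lay above the 20.3% over all features and the 11.1% of protein-coding genes. Coding genes with little input came closer to it. Of the 1000 with the lowest input density (normalised input reads per nt), 32.3% were higher. A feature with few input reads could be tested on its IP mean alone, and the median tested XUT had 3 and 2 input reads. With 1 pseudocount common to IP and input, the medians were 0.53 for ncRNA, 0.13 for XUT and 0.25 for nc-TU. The part of the filter in the shares of these classes was not tested. Pseudogenes had a median of 0.42, with 4 of 15 higher. Spliceosomal snRNAs had the highest median, 1.29, with 3 of 4 higher.

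Low input reads moved with these medians. Among the 5084 features with at least 10 reads in each TSA library, 457 were higher and 598 lower. Only 276 ncRNAs, 116 XUTs and 36 nc-TUs were left, and their medians were 0.31, 0.23 and 0.50. Of these, 63 ncRNAs, 31 XUTs and 11 nc-TUs were higher, beside 348 of 4422 protein-coding genes. The part of low counts in the noncoding medians was not tested further. The tRNA median remained at −3.80, the snoRNA median at −1.75 and the snRNA median at 1.29, and the rRNA median stood at −2.27 over 20 genes.

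In the untreated cultures the same class medians were −4.53 and −3.39 for tRNA, 0.99 and 0.89 for ncRNA, 0.87 and 0.77 for XUT and 2.24 and 1.39 for snRNA. The TSA and untreated cultures overlapped in each of these, and likewise for rRNA, nc-TU, pseudogenes and mitochondrial features. For snoRNA they did not overlap, with −1.41 and −2.03 in TSA cells and −2.44 and −2.08 in untreated cells. No class median was tested for a change.

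**Figure D2:**
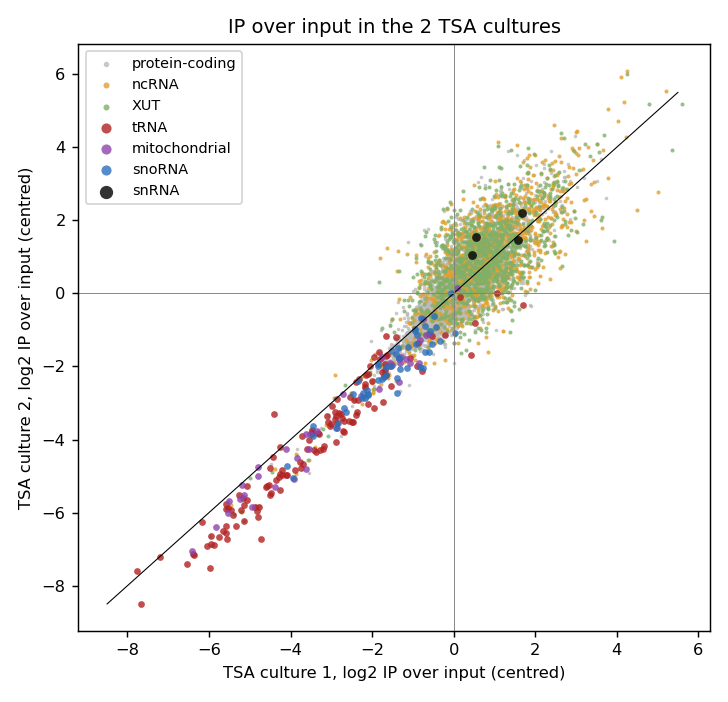
Centred log2 ratio of IP over input in TSA culture 1 (x axis) against TSA culture 2 (y axis), 1 point per tested feature, with the line of equality (rRNA, nc-TU and pseudogenes are not drawn). tRNA and mitochondrial features reach below −6 in both cultures, and in the low range most points lie below the line, as the class medians of −3.31 and −3.86 for tRNA do.

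The sequences of 6 tRNA genes are shown because the ratio separated genes whose mature tRNAs are alike or identical. They were read from the ASM294v3 reference by gene identifier, and the intervals of the file and the reference were the same. Capitals mark matches to GTTCNANNC, the core of the internal B box to which the Pol III factor TFIIIC binds. SPBTRNAGLY.05 lies at chrII:326235-326305 (+), SPCTRNAASP.08 at chrIII:2139408-2139478 (−), SPBTRNATRP.02 at chrII:717076-717148 (+), SPBTRNATRP.03 at chrII:1774860-1774932 (+), SPATRNALYS.01 at chrI:1704582-1704664 (+) and SPATRNALYS.04 at chrI:2684683-2684765 (−).
SPBTRNAGLY.05: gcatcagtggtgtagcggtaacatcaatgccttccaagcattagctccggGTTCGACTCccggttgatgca
SPCTRNAASP.08: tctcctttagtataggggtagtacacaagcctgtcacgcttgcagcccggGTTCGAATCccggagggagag
SPBTRNATRP.02: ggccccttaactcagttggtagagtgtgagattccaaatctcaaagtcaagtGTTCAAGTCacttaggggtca
SPBTRNATRP.03: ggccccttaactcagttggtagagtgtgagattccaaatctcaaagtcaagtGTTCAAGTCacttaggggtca
SPATRNALYS.01: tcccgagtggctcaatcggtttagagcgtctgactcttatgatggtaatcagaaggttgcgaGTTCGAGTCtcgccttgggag
SPATRNALYS.04: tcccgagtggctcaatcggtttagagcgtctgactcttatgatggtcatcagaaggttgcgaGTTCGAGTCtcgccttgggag
The motif occurs in 91.2% of the 171 nuclear tRNA genes and in 1.18% of 344432 windows of 73 nt tiled over the nuclear chromosomes, both strands counted. A match is a description of the letters and says nothing of occupancy.

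SPBTRNAGLY.05, a glycine tRNA gene, had the lowest ratio of all, −8.09. It had 5080 and 2746 normalised reads in the TSA IP libraries, against 168700 and 167100 in the inputs. Both IP libraries lay far below both inputs, but the adjusted p of 0.0567 (limma) missed the threshold. SPCTRNAASP.08, an aspartate tRNA gene, had 4716 and 3164 normalised reads in IP and 169100 and 102400 in input, and its ratio of −7.69 ± 2.35 (SE, n = 2 cultures) was called lower with an adjusted p of 0.0272. For both genes the IP held a small fraction of the input in each culture. The spread that limma assigned followed the level of the ratio, which made the errors of the lowest ratios large. SPCTRNAASP.08 is the lowest of 5 tested genes with the same sequence, and the highest of them, SPCTRNAASP.05, stood at −1.45. How reads were placed among these copies was not tested.

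The tryptophan genes show how far copies can lie apart. SPBTRNATRP.02 and SPBTRNATRP.03 have the same sequence as each other and as the third tested gene, SPATRNATRP.01. SPBTRNATRP.02 had 274.5 and 221 normalised reads in IP and 1043 and 1058 in input, a ratio of −4.65. SPBTRNATRP.03 had 189.5 and 114 in IP and 14.1 and 19.0 in input, a ratio of 0.54, so its IP exceeded its input more than that of the median coding gene. SPATRNATRP.01 stood at −6.22, with 3.12 and 1 normalised reads in IP and 127.8 and 111.5 in input. Between SPBTRNATRP.02 and SPBTRNATRP.03 the inputs thus differed by far more than the IP values, and SPATRNATRP.01 was all but missing from IP, although the 3 sequences are the same. The 2 lysine genes printed above differ by 1 base, A47C, counted from the 5′ end of the gene with SPATRNALYS.01 first. SPATRNALYS.01 had a ratio of −6.76 and SPATRNALYS.04 one of −1.11. SPATRNALYS.04 is 1 of 3 tested genes with the same sequence, which lay between −1.96 and −1.11. SPATRNALYS.01 shares its sequence with no other tested gene. The part of the differing base in this distance was not tested.

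Reads were kept only where they aligned to 1 place, so a read inside identical copies could not be placed, and reads counted for such a gene had to reach beyond the shared sequence. The 133 nuclear tRNA genes that are identical to another gene form 31 groups, and 38 have a sequence of their own. The 37 tested genes with their own sequence had a median ratio of −5.32, a median of 31600.5 input reads and 36 called lower. The 93 tested genes with an identical copy had a median of −3.24, a median of 303.5 input reads and 86 called lower. In the 28 groups with 2 or more tested genes, the median distance between the lowest and the highest copy was 1.83, and the largest, that of the tryptophan genes, was 6.76. The part of the read placement in these differences was not tested.

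By amino acid, cysteine genes had the lowest median, −5.40 over 3 genes, and lysine genes the highest, −1.96 over 7 genes. Glycine (−5.06) and threonine (−4.87) genes also had low medians. Asparagine (−2.59), aspartate (−2.34) and tyrosine (−2.05) genes had high medians among the tRNAs. Each gene counted once in these medians, whatever its reads. The 5 tested aspartate genes are identical in sequence. Of the 289540 and 120297 TSA input reads over all aspartate genes, SPCTRNAASP.08 (−7.69) held 286956 and 118530. Within most amino acids the genes spread over several log2 units, so neighbouring medians did not stand apart from the spread. The 30 tested genes with an annotated intron had a median of −3.20 and the 100 without one a median of −3.76.

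**Figure D3:**
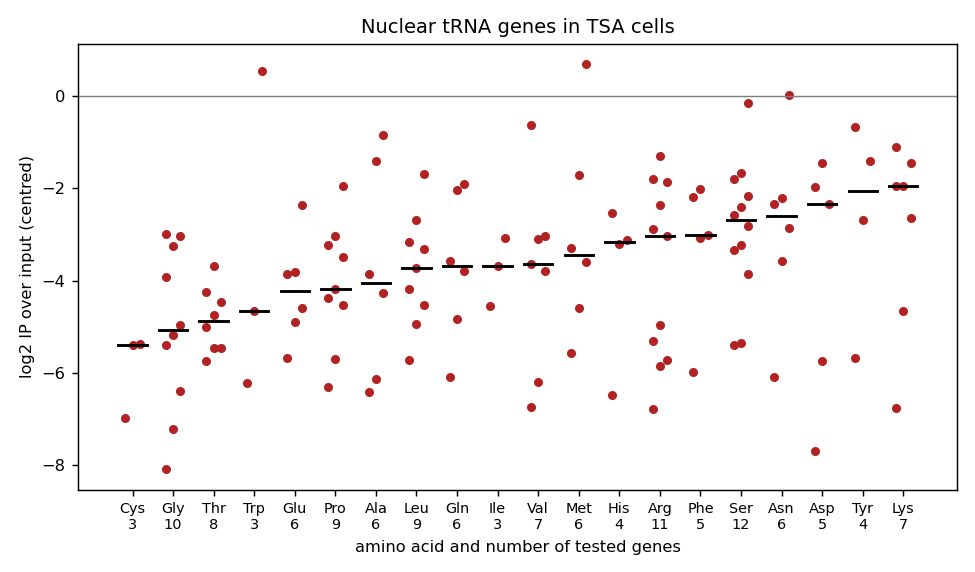
Centred log2 ratio of IP over input in TSA cells (mean of 2 cultures, y axis) for each tested nuclear tRNA gene, grouped by amino acid (x axis, with the number of tested genes), bars at the median. Medians run from −5.40 for cysteine to −1.96 for lysine, and single genes from −8.09 to 0.69.

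The mitochondrial transcripts were all read against the same nuclear median. Their tRNAs had a median of −4.21 with 24 of 25 lower, and the lowest was SPMITTRNATRP.01 at −6.73. The exception, SPMITTRNAMET.01, stood at 0.11. The 15S and 21S rRNAs had ratios of −2.53 and −1.79. The other mitochondrial transcripts lay higher than most of these tRNAs and were still below the median nuclear gene. The gene of cytochrome b, cob1, had a ratio of −1.73, cox1 one of −1.48, and atp9, the highest of them, one of −0.72.

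Among snoRNAs the low end and the high end are shown by their sequences, because the low members are of the box C/D kind and the high ones carry the same boxes. Capitals mark TGATG, the letters of box C searched, and CTGA, those of box D, and the 2 motifs may overlap. The genes are snoR68 at chrII:3944573-3944645 (+), snoR47 at chrII:3654333-3654416 (−), snoZ15 at chrII:1756122-1756222 (−) and snR41 at chrI:1200168-1200253 (+), in ASM294v3.
snoR68: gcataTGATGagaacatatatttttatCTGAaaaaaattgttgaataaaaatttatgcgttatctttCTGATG
snoR47: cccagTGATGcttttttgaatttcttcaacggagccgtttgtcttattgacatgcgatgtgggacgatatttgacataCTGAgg
snoZ15: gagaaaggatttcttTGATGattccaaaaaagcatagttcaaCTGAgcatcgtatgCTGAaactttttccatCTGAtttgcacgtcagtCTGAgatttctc
snR41: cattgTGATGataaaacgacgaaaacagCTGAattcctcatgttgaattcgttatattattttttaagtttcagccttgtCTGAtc
Both motifs occurred together in 56.1% of the 57 snoRNA genes and in 3.61% of 299326 windows of 84 nt on either strand of the nuclear chromosomes.

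snoR68 had 1001 and 413 normalised reads in the TSA IP libraries, against 2539 and 2339 in the inputs. Its ratio was −4.50 ± 0.40 (SE, n = 2 cultures, adjusted p = 6.93e-05, limma), and snoR47 followed at −4.40. At the other end snoZ15 had 2160 and 2086 normalised reads in IP and 371.7 and 348.3 in input, a ratio of −0.04. snR41 had a ratio of −0.52. So snoRNAs with the same boxes spread from the median coding gene down to a distance of over 4 log2 units. The 14 tested snoRNAs annotated as box H/ACA, the class that guides pseudouridylation, had a median of −2.22 with 13 lower. The 37 others had a median of −1.54 with 27 lower. The 11 snoRNAs that lie within a coding gene on its strand had a median of −1.30, and the 40 outside coding genes one of −1.87.

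Other structural RNAs lay low as well. srp7, the RNA of the signal recognition particle and a Pol III product, had 206700 and 119400 normalised reads in IP, against 353300 and 367500 in input. Its ratio was −3.80 with an adjusted p of 4.80e-05 (limma). mrp1, the RNA of RNase MRP, had a ratio of −2.39, and rrk1, the RNA of RNase P, one of −2.31. ter1, the RNA of telomerase, stood at −1.36. All 4 were called lower. 5S rRNA genes ranged from −3.55 for SPRRNA.41 to 1.30 for SPRRNA.04, with 17 lower and 3 higher among 33. None of the 18 with at least 10 reads in each library was higher, and 15 of them were lower.

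The spliceosomal snRNAs were the class of stable RNA on the high side. The sequences of U1, U5 and U6 are given because U1 and U5 are Pol II products that bind Sm proteins and U6 is a Pol III product. Capitals mark NTTTTTG, letters within the Sm site of U1 and U5, and in U6 the B box letters GTTCNANNC. snu1 lies at chrII:3020205-3020353 (+), snu5 at chrII:3236867-3236986 (+) and snu6 at chrI:2562276-2562419 (−) in ASM294v3, and the file's interval of snu6 ends 8 nt further, at 2562427.
snu1: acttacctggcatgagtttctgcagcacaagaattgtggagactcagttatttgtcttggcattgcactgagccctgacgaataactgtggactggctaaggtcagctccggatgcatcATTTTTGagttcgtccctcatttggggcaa
snu5: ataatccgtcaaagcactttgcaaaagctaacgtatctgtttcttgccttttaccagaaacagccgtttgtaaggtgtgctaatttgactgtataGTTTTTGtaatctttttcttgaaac
snu6: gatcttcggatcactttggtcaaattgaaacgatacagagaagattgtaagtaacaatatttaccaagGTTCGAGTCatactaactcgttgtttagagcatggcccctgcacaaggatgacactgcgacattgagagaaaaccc
NTTTTTG was found in 12.5% of 209526 windows of 120 nt on either strand of the nuclear chromosomes, so its presence alone is common.

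snu1 had 334300 and 528500 normalised reads in the TSA IP libraries, against 17000 and 19110 in the inputs. Its ratio was 1.94 ± 0.41 (SE, n = 2 cultures, adjusted p = 0.00724, limma). snu5 had 109800 and 111400 in IP and 6003 and 6731 in input, a ratio of 1.52. snu2, which alone made 7.91% and 15.1% of all IP reads over features, had a ratio of 1.05, with 0.55 in one culture and 1.55 in the other. These 3 Pol II snRNAs were called higher by limma, but the call of snu2 was lost in edgeR (adjusted p = 0.143) and DESeq2 (adjusted p = 0.419). snu6 had 62180 and 86680 normalised reads in IP and 7431 and 6941 in input, and its ratio of 0.75 was not called (adjusted p = 0.0583, limma). The entry named snu4 was not tested. The file places snu4 at chrII:467233-467361, which does not overlap the reference gene at chrII:467489-467615, while novelncTU_372 overlaps that gene by 123 nt. novelncTU_372 had a ratio of 0.79, which was under the 2-fold threshold and not called.

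Within the noncoding classes, position against coding genes went with the level of the ratio. ncRNAs that run antisense to a coding gene, with none on their own strand, had a median of 0.91 over 726. Those that overlap no coding gene had a median of 0.55 over 282. For XUTs the same medians were 0.86 over 718 and 0.44 over 262, and for nc-TUs 0.95 over 116 and 0.35 over 39. Members that overlap a coding gene on its own strand, and share its reads, had medians of 0.87, 0.80 and 0.82 in the same classes, close to the antisense members. In all 3 classes it was thus the members away from coding genes that lay lower, and no test was made of this difference. With at least 10 reads in each library, the antisense ncRNAs had a median of 0.52 over 116 and those overlapping no coding gene one of −0.34 over 53.

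The highest ncRNA by the rule for named features was mug93-antisense-1 (chrII:1461561-1463725, − strand). It had 699.6 and 1179 normalised reads in IP, against 8.84 and 10.4 in input, a ratio of 3.81 ± 0.69 (SE, n = 2 cultures, adjusted p = 0.00425, limma). XUT0260 lies at the same locus and counts the same input reads. Where annotated features overlap on a strand, as these do, they share reads and are not separate observations. SPNCRNA.1327 had 537.4 and 962 normalised reads in IP and 5.89 and 9.51 in input, a ratio of 3.79. SPBC365.11-antisense-1 followed at 3.53 and SPNCRNA.1318 at 3.14. Each of these had more IP reads and fewer input reads than the median protein-coding gene in both cultures.

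At the low end, ain1-antisense-1 had 201.2 and 241 normalised reads in IP and 1489 and 2281 in input, a ratio of −5.61. SPBC30B4.06c-antisense-1 had a ratio of −5.59, and XUT1052, which lies inside it, one of −5.60. hsp3105-antisense-1 stood at −4.60. These 3 loci overlap no structured RNA gene on their strand. Others do. In SPNCRNA.1650 (−4.41), snoR68 accounts for 99.8% of the input reads in both cultures. XUT0616, XUT1390 and XUT1375, the other XUTs with the lowest ratios, each hold a tRNA gene, and novelncTU_182, one of the highest nc-TUs (1.54), holds snu5.

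Among named ncRNAs, sme2 and omt3 of the Mmi1 list were high. sme2, which encodes meiRNA, the RNA that sequesters the RNA elimination factor Mmi1 in meiosis, had 114.7 and 143 normalised reads in IP and 6.48 and 5.19 in input, a ratio of 1.68. omt3 had 1030 and 1180 in IP and 33.0 and 29.4 in input, a ratio of 2.50. Both were called higher, whereas meu19, another ncRNA, was lower at −1.35.

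The ratios of protein-coding genes had quartiles at −0.44 and 0.52. Their rank correlation with gene length was weak (Spearman rho of 0.0641 across 4999 genes), but short genes held more of the lower calls. Of the shortest genes (955 tested, in 1 of 5 length groups) 14.6% were lower, against 3.57% of the 1009 longest. By number of exons the medians were 0.03 for 1 exon, −0.06 for 2 and 0.03 for 3 or more, with 6.69%, 9.12% and 3.5% of the genes lower in that order. IP density followed input density with rho of 0.874. The ratio itself fell with input density with rho of −0.649, a value to which the shared input contributes, since input is the denominator of the ratio. Of the 1000 genes with the lowest input density 323 were higher and 1 lower, and of the 1000 with the highest 13 were higher and 275 lower. These are correlations across genes, which are not independent replicates.

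The 10 highest coding genes by the rule for named features were led by SPAPB24D3.06c, with 931.3 and 1312 normalised reads in IP and 16.5 and 19.9 in input. Its ratio was 3.25 ± 0.59 (moderated SE, n = 2 cultures, adjusted p = 0.0043, limma), with 3.12 and 3.39 in the cultures. SPBC530.02 followed at 3.17. rep1, which encodes an activator of genes for premeiotic DNA synthesis, had 341.6 and 508 in IP and 8.25 and 13.8 in input, a ratio of 2.56. In these 3 genes the IP reads lay above and the input reads below those of the median protein-coding gene in both cultures. Over the coding part alone SPBC530.02 had a ratio of 3.29 and rep1 one of 1.82. SPAPB24D3.06c kept only 0.94, and mrl1, at 3.03 over the whole gene, had −0.04, so their high ratios lay in the reads outside the coding part.

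The 10 lowest coding genes fell into 2 kinds. In bmt2 (−6.31), lcp1 (−5.61), SPAC17G6.03 (−4.92) and SPBC1271.08c (−3.47), a tRNA gene on the same strand overlaps the annotated transcript. In fta3 (−4.05), which encodes a kinetochore protein, snoR47 does. SPATRNAPRO.01 accounted for 100% of the input reads of bmt2 in both cultures, and snoR47 for 98.9% and 98.4% of those of fta3. Over the coding part these 5 genes had −0.15, 0.59, 0.45, 1.27 and 0.04 in that order. For these 5 the low ratio was thus not seen in the coding part.

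The other 5 kept their low ratio over the coding part. mfc1, which encodes a copper transporter of the forespore membrane, had 76.4 and 118 normalised reads in IP and 305.8 and 533.3 in input, a ratio of −4.58 and −4.39 over the coding part. SPBP4H10.16c had −4.23 and −4.19. cnd2, which encodes a condensin subunit, had 239.4 and 214 in IP and 273.9 and 549.7 in input, a ratio of −3.33 and −3.32 over the coding part. mug86 had −3.20 and −3.74. pan3, which encodes a subunit of a poly(A) nuclease, holds a 5S gene that took 13.4% and 7.3% of its input reads and 40.7% and 33.4% of its IP reads, and had −4.14 and −4.51. In all 5 the coding part was called lower too. Of the 20 tested coding genes that hold a structured RNA gene on their strand, 15 were lower and none higher, with a median of −1.29, and the 4979 others had 303 lower and 557 higher.

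**Figure D4:**
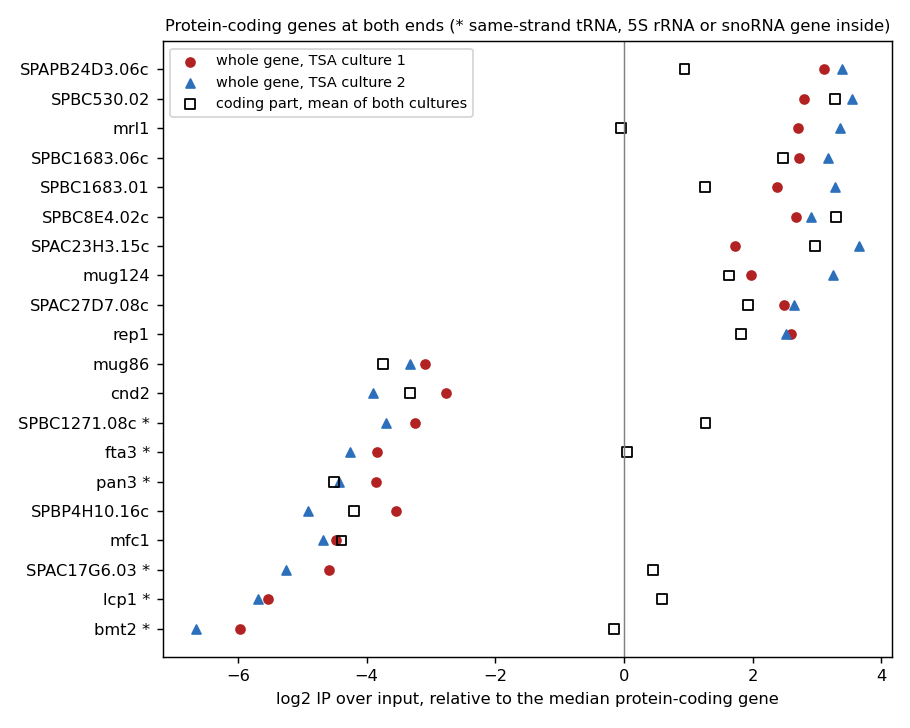
Centred log2 ratio of IP over input (x axis) of the 10 highest and 10 lowest protein-coding genes by the rule for named features. Filled points are the whole gene in each TSA culture, open squares the coding part as the mean of both cultures, and stars mark genes with a tRNA, 5S rRNA or snoRNA gene inside on their strand. The whole gene of bmt2 stands at −6.31 and its coding part at −0.15, while both stand near −4.5 for mfc1.

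The counts in the gene groups stand against 11.1% higher and 6.36% lower over all protein-coding genes. Those shares varied with input density. Of the 1000 genes with the highest density, 27.5% were lower, at median input reads of 415.5 and 275. Translation factors (465 and 289) and heat shock proteins and chaperones (535 and 355.5) had similar input reads. Of the 1000 genes with the lowest density, 32.3% were higher. The part of input density in the group shares was not tested. Cytosolic ribosomal proteins had the lowest median of the gene groups plotted. Of 140 tested genes for cytosolic ribosomal proteins, 113 were lower and none higher, with a median of −1.31 against 0.01 over all coding genes. rps1402 had 1168 and 842 normalised reads in IP and 644.5 and 623.1 in input, a ratio of −1.94 ± 0.18 (SE, n = 2 cultures, adjusted p = 8.15e-05, limma), and rpl4302 had one of −1.90. Both cultures lay below the coding median for 136 of the 140. Translation factors had a median of −0.80 with 10 of 37 lower, among them tef3 (elongation factor 3, −1.5) and tef102 (elongation factor 1 alpha, −1.46). Over the coding part tef102 (−0.89) was not called. Ribosome assembly factors had a median of −0.53, with 6 of 83 lower (7.23%, close to the share over all coding genes) and 2 higher. One of the 6 is nog2 (−2.25), which holds snR191 and had −0.37 over its coding part. The 33 genes for mitochondrial ribosomal proteins, by contrast, had a median of −0.01.

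Enzymes of glycolysis and fermentation had a median of −1.01, with 10 of 19 lower and none higher. eno101, which encodes enolase, had 29560 and 27010 normalised reads in IP and 14050 and 12350 in input, a ratio of −1.5. pdc101, which encodes pyruvate decarboxylase, stood at −1.58, pgk1 (phosphoglycerate kinase) at −1.27 and adh1 (alcohol dehydrogenase) at −1.03. Heat shock proteins and chaperones had a median of −0.81 with 10 of 34 lower and 4 higher. ssc1, the Hsp70 of the mitochondrion, was lower at −1.70, as were hsp90 (−1.24) and 4 subunits of the cytosolic chaperonin, cct1, cct4, cct7 and cct8. hsp9 (1.32), hsp3101 (1.33), hsp3102 (1.44) and hsp3105 (1.61) were higher. Of these 4, hsp3102 and hsp3105 had at most 6 reads in an input library, and DESeq2 called hsp3101 alone. Proteasome subunits had a median of −0.53, with 3 of 33 lower, and all but 1 of the 33 lay below the coding median in both cultures. Nuclear genes of oxidative phosphorylation had a median of −0.39, with sdh3 (−1.80), atp2 and sdh1 lower and qcr10 (1.5) higher. Over the coding part atp2 (−0.91) was not called.

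**Figure D5:**
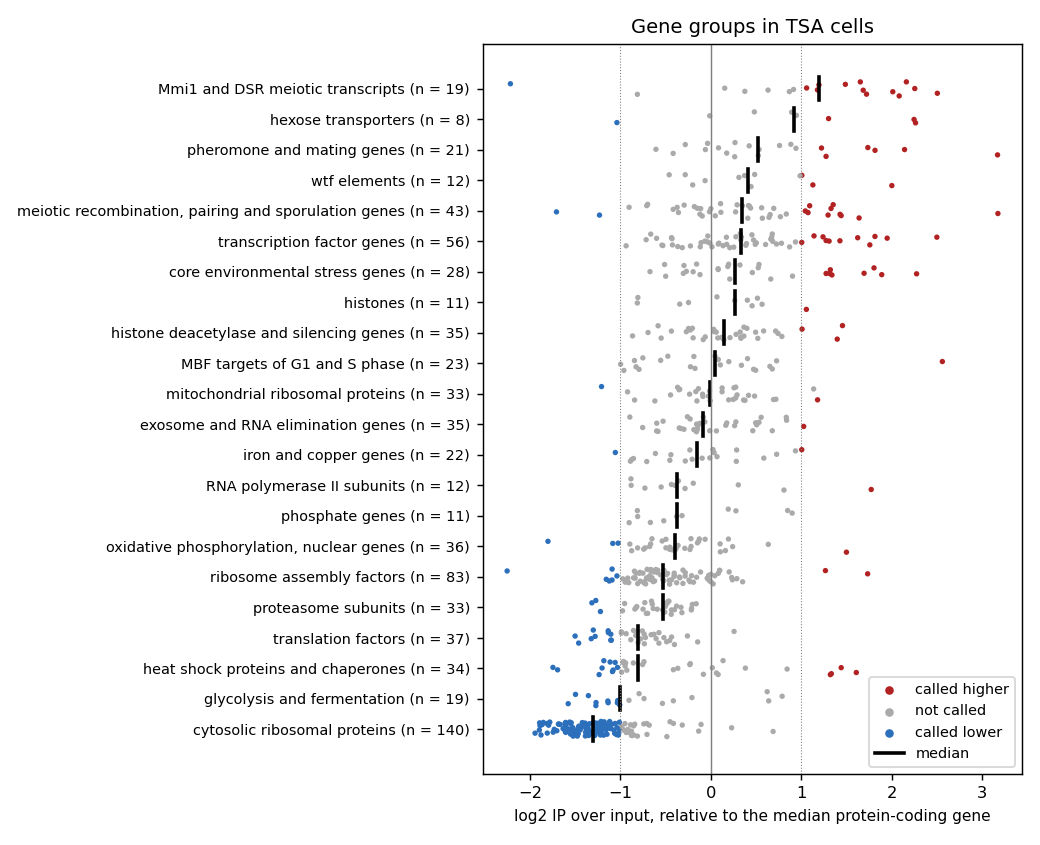
Centred log2 ratio of IP over input (x axis, mean of both TSA cultures) for each tested member of 22 gene groups, in order of their medians, with the number tested. Red points were called higher and blue points lower, and the dotted lines mark a 2-fold distance from the median protein-coding gene. The median is 1.19 for Mmi1 and DSR meiotic transcripts and −1.31 for cytosolic ribosomal proteins.

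The list of meiotic transcripts bound by Mmi1 had the highest median of the gene groups plotted. Mmi1 is an RNA-binding protein that directs meiotic transcripts to the nuclear exosome in mitotic cells, through a region called DSR that is rich in TNAAAC. Of 19 listed transcripts of this kind, 12 were higher and 1 lower, with a median of 1.19. The coding stretches of mei4 and ssm4 with most matches to that motif are shown, each as 120 nt of 1 coding exon in ASM294v3, with the motif in capitals. They lie at chrII:1473851-1473970 (+) and chrI:4535156-4535275 (−).
mei4: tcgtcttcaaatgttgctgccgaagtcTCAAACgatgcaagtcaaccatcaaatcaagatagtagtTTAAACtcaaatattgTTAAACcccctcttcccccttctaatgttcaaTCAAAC
ssm4: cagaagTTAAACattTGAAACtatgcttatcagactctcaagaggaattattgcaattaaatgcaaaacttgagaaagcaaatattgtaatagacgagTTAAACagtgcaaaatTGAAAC
Each holds 4 matches, and 0.02% of 209526 windows of 120 nt on either strand of the nuclear chromosomes hold as many. Over their annotated spans the 18 listed transcripts found in the reference had a median of 5.7 matches per kb, against 1.65 in 4994 tested coding genes, and all 18 lay above that coding median. The list was drawn up from genes known for this motif, so its motif content is a description.

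mei4, the forkhead transcription factor of meiosis, had 287 and 339 normalised reads in IP, against 9.43 and 10.4 in input, a ratio of 2.25 ± 0.44 (SE, n = 2 cultures, adjusted p = 0.00547, limma). ssm4, which encodes a dynactin subunit of the meiotic prophase, had 110.8 and 171 in IP and 6.48 and 2.59 in input, a ratio of 2.16. rec8, the meiotic cohesin, had 83.5 and 108 in IP and 4.12 and 4.32 in input, a ratio of 1.65. For all 3 the input held at most 16 reads in a library. rec27 (2.08), mug9 (2.01), spo5 (1.72), mug8, mek1, mcp5 and rec25 were also higher. The exception was mcp7 at −2.22, which had 531.9 and 379 normalised reads in IP and 360.5 and 338.8 in input, and stood at −0.07 over its coding part. Only 8 of the 19 had at least 10 reads in each library, and their median was 0.50 with 3 higher.

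Other genes of the meiotic programme lay closer to the rest of the genome. Of 43 genes of meiotic recombination, pairing and sporulation, 10 were higher and 2 lower, with a median of 0.35. bqt2, which tethers telomeres in the meiotic bouquet, had the highest ratio of these, 3.17, from 91.2 and 101 normalised reads in IP and 0.589 and 0.864 in input. That input amounts to 1 read in each library. meu14 was lower at −1.71 and spo15, a spindle pole body component needed for sporulation, at −1.23. None of the 23 members with at least 10 reads in each library was higher. Genes of pheromone signalling and mating had a median of 0.52 with 6 of 21 higher and none lower. They were led by map2, which encodes the precursor of the P-factor pheromone (3.17), and byr2, the kinase at the head of the pheromone MAP kinase cascade (2.14). map2 had only 7 and 10 reads in the TSA inputs and no ratio over its coding part. Over its coding part byr2 stood at 1.52.

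Hexose transporters divided. ght1 had 779.2 and 1194 normalised reads in IP and 36.5 and 28.5 in input, a ratio of 2.26, ght4 one of 2.25 and ght8 one of 1.30, and all were higher. ght3 had 212.1 and 178 in IP and 70.1 and 64.8 in input and was lower at −1.04. The high-affinity glucose transporter ght5 had 0.48 and was not called. The median over the 8 was 0.92.

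Genes of transcription factors had a median of 0.33, with 11 of 56 higher (19.6%, against 11.1% over all coding genes) and none lower. rsv1, a zinc finger factor needed for viability in stationary phase, had 551.4 and 914 normalised reads in IP and 20.6 and 19.0 in input, a ratio of 2.50. rsv2 (1.95), pcr1 (1.81), scr1, the repressor of glucose-repressed genes (1.76), and ste11, the master regulator of mating (1.27), were higher too. All but 1 of the 56 had at least 10 reads in each library, and 11 were still higher, so this group does not consist of genes with few reads. Core environmental stress genes had a median of 0.26 with 8 of 28 higher and none lower, among them zwf2 (1.89), ish1 (1.80) and the phosphatase gene pyp2 (1.69). The highest, gst1 (2.27), had only 2 and 0 reads in the TSA inputs and was lost in DESeq2 (adjusted p = 0.0614).

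The remaining groups stayed near the median coding gene. Histone genes had a median of 0.26 with hhf2, an H4 gene, the only one of 11 higher (1.06). Genes of histone deacetylases and silencing factors had a median of 0.14 with 3 of 35 higher (8.57%, below the 11.1% over all coding genes), which were mit1 (1.45), chp2 (1.40) and sir2 (1.01). Over the coding part chp2 (0.43) and sir2 (0.63) were not called. Subunits of Pol II had a median of −0.38, and the only one called was rpb3, the tagged subunit, which was higher at 1.77 with 1511 and 1588 normalised reads in IP and 71.3 and 76.9 in input. Its coding part stood at 1.16. Phosphate genes had a median of −0.38 with none of 11 called, and pho1, the repressible acid phosphatase, had a ratio of −0.32 from 5116 and 4652 normalised reads in IP and 990.9 and 1020 in input.

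Of 34 genes that the study looked at singly, 30 were tested, 7 were higher and 3 lower. The study chose them on cells under the same treatment. SPCC1235.18 (2.33), SPCC1235.17 (2.30), ght1 and ght8, hry1 (1.95), wtf11 (1.13) and sir2 were higher. pdh1 (−2.5), meu19 (−1.35) and adh1 were lower. Over the coding part pdh1 had 0.26, so its low ratio also lay outside the coding sequence.

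The calls rested on 2 cultures. With the spread taken from the untreated cultures, 593 features were higher and 654 lower without TSA culture 1. Without TSA culture 2 none was called by limma in either direction, with 1364 and 1091 features past an unadjusted p of 0.05. Over the same 4 libraries, edgeR with culture as a block called 1497 higher and 623 lower, and DESeq2 called 801 higher.

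The ratio was also compared with that of untreated cells over 7952 features. No change passed the test in limma in either direction (percent called 0), with 320 rises and 487 falls past an unadjusted p of 0.05, a smallest adjusted p of 0.394 and 240 rises and 392 falls of 2-fold or more before the test. On recovered reads edgeR called 3 rises (0.0377%) and 42 falls (0.528%), and DESeq2 called no rise and 10 falls (0.126%). The 10 falls that both called include gpx1 (glutathione peroxidase), ctt1 (catalase), hsp16 (a small heat shock protein) and pho1. In ctt1 the IP was 1451 and 1833 normalised reads in TSA cells and 1679 and 1943 in untreated cells, while the input was 245.1 and 228.2 in TSA cells and 89.6 and 87.6 in untreated cells. In ctt1 the input thus differed more than the IP, and the ratio fell by 1.57. Other falls were made up differently. In pho1 the IP was 5116 and 4652 in TSA cells and 1921 and 2229 in untreated cells. Its input was 990.9 and 1020 against 111.2 and 174.2. In urg1, also called by both, the IP was 177.8 and 116 in TSA cells and 658.8 and 571.3 in untreated cells. Its input was 48.3 and 38.9 against 37.6 and 55.6.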

How the data were processed

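The deposited table holds reads per feature, which the authors scaled to the total of uniquely mapped reads with 1 factor per library, so that its values are a signal and not raw counts. The factor of the second TSA IP library was 1, and its deposited values are counts. In each of the 8 libraries the values were whole multiples of 1 read for 100% of features (tolerance 0.001), and these recovered reads were used for depth, for edgeR and for DESeq2. Per the labels and methods, reads of 50 nt were trimmed with cutadapt and aligned with Bowtie, and unique alignments with at most 1 mismatch were kept. Per the methods, reads aligned to both yeasts were removed, NET-seq reads were cut to their 3′ nucleotide and regions were counted in R. The feature annotation and how strand was assigned in counting are not given in the sources used here. A second table, scaled to budding yeast reads, holds IP libraries only and was not used.

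The log2 ratio of IP over input was taken within each culture with pseudocounts at the 10th percentile of non-zero values, centred on protein-coding genes, and tested against 0 with limma 3.58.1 (R 4.3.3) over 7940 features with Benjamini-Hochberg adjustment. On the log2(value + pseudocount) scale the change of low features is understated. IP and input libraries of the same replicate number share a title and a culture, which pairs them. Alternatives used edgeR 4.0.16, DESeq2 1.42.0, other pseudocounts, filters and centring, and each culture left out. In simulated data with known ratios the test recovered 96% of features at log2 −2.5, 80% at −1.5, 69.4% at 1.5 and 100% at 2.5. It made 9 false calls of 7644. Only 50 features were simulated at each of these ratios and 7740 at the coding median. All reads were drawn with a common dispersion and no difference between cultures. The real data differ in each of these, with 2240 features called, so the simulated false calls give no error rate for them. Features named in the text are the 10 highest and 10 lowest called protein-coding genes and up to 4 at each end of each other class, all with at least 10 reads in each TSA library, the 2 highest and 2 lowest of each gene list, and the genes the study examined. Other members named were chosen after their values were seen. The members and lists were chosen with earlier results of these data known. Sequences and gene models are those of RefSeq for ASM294v3, to which 6840 of the 9111 identifiers were matched.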

Additional observations from a re-analysis of the deposited data

Results flagged for a closer look

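For 7 of the 186 features named by the rule the ratio lay on one side of the median protein-coding gene in both TSA cultures and on the other side in both untreated cultures. Of these 7, all but cta3 were lower in TSA cells. Over the 7810 features tested in both comparisons, 280 switched sides in this way to be lower in TSA cells and 204 to be higher. meu6 averaged −0.81 in TSA cells and 1.05 in untreated cells, and meu14 averaged −1.71 in TSA cells and 0.27 in untreated cells. SPAC27D7.09c averaged −0.90 in TSA cells and 0.62 in untreated cells, mel1 averaged −0.51 in TSA cells and 1.00 in untreated cells, and efr3 averaged −0.27 in TSA cells and 0.27 in untreated cells. pho1, the acid phosphatase gene, averaged −0.32 in TSA cells and 1.31 in untreated cells. cta3 went the other way, with 0.20 in TSA cells and −0.24 in untreated cells. None of the 7 differences passed limma's test of the change, with adjusted p between 0.394 and 0.575, while edgeR called the falls of pho1 and meu6 (adjusted p = 0.0485) and DESeq2 that of pho1.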

How the results depend on the processing

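Of 122 called features named by the rule, 89 kept their call under every alternative other than no centring and leaving out a culture, 33 lost it under at least 1, and 6 reversed under at least 1. The count of higher features was 917 with 4 times the pseudocount, 523 with at least 10 reads in each TSA library, 846 among features without same-strand overlap and 801 by DESeq2, and it ranged between 0 and 593 when a TSA culture was left out. The count of lower features then ranged between 0 and 654. Without the replicate block, that is, without pairing IP and input by culture, 1496 were higher and 623 lower. Without centring, on the scale of total reads, 7634 were higher and 108 lower, since the median coding gene itself stood near 2.6. For the change against untreated cells, edgeR called 3 rises and 42 falls, DESeq2 10 falls, limma 2 falls with at least 10 reads in each TSA library, and limma 10 falls with its variance trend over the mean level, an alternative chosen after seeing the data. Leaving out a culture gave between 0 and 1 falls, the 1 being without untreated culture 1, and the replicate number as a block gave 0 rises and 0 falls.

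The ncRNA median was 0.74 with 4 times the pseudocount, 0.53 with a common pseudocount, 0.38 with at least 10 reads and 0.66 centred on all features, and 0.74 to 0.90 with a culture left out. The XUT median was 0.13 with a common pseudocount, 0.30 with at least 10 reads, 0.59 with no filter and 0.55 centred on all features. The nc-TU median was 0.25 with a common pseudocount, 0.57 with at least 10 reads and 0.59 with no filter. The pseudogene median was 0.16 with a common pseudocount, 1.06 without same-strand overlap, 0.22 centred on all features, and 0.40 to 0.63 with a culture left out. The rRNA median was −1.45 with a common pseudocount and −2.20 with at least 10 reads. With coding parts in place of whole genes, chosen after seeing the data, the medians were 1.04 for ncRNA, 0.94 for XUT and 0.60 for pseudogenes. With an alternative filter the centring is taken anew, so these medians differ slightly from those over the subset of features. Without centring the medians were 3.46 for ncRNA, 3.35 for XUT, 3.42 for nc-TU, 3.02 for pseudogenes, 3.88 for snRNA, −1.05 for tRNA and −0.69 for mitochondrial features, and they reversed to 0.84 for snoRNA and 1.603 for rRNA.

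Over the coding part alone the ratio reversed for mrl1 (−0.041), lcp1 (0.59), SPAC17G6.03 (0.45), fta3 (0.042), SPBC1271.08c (1.27) and pdh1 (0.26). Without centring it reversed for novelncTU_449 (0.073), novelncTU_269 (0.89), mcp7 (0.38), meu14 (0.89), spo15 (1.37), ght3 (1.56), pdc101 (1.02), eno101 (1.10), rps1402 (0.65), rpl4302 (0.70), mrps17 (1.39), tef3 (1.10), tef102 (1.14), nog2 (0.35), gar1 (1.44), sdh3 (0.80), atp2 (1.51), hsp3103 (0.85), ssc1 (0.90), str3 (1.54), pre5 (1.28), rpt5 (1.33), mrp1 (0.21), rrk1 (0.29), pdh1 (0.10), meu19 (1.24) and adh1 (1.57), so these genes are low only relative to the median protein-coding gene. The cause of the other shifts was not tested. Input depth limits the noncoding classes, whose median feature had 6 or fewer input reads in each TSA library.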

Other observations

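A set of features had IP reads in both TSA cultures and not a single read in either TSA input. These were 396 features, of which 201 were XUTs, 94 nc-TUs, 76 ncRNAs, 21 protein-coding genes, 3 snoRNAs and 1 snRNA, and none of them was tested. With 3 reads per input library as the limit that a count of 0 allows, the bound lay above the median coding gene for 65 and at least 2-fold above it for 23. SPAC56F8.12 had 100 and 88 reads in the TSA IP libraries, which puts it at least 6.44-fold higher than the median coding gene. XUT0267, with 89 and 90 reads in IP, was at least 6.14-fold higher, XUT0504 (99 and 64 reads) at least 5.46-fold higher and novelncTU_346 (90 and 59 reads) at least 5.0-fold higher. The interval that the file names snu4 had 214 and 185 reads in IP and lies outside the reference gene of U4.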
